A study of Mus musculus with 11 samples.

Results

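The chemokine receptor Ccr2 and 9 further genes of monocyte and leukocyte recruitment were followed in whole mouse hearts: the chemokines Ccl2, Ccl7, Ccl8, Ccl6, Ccl9, Ccl24, Cxcl12 and Cxcl1, and the receptor Cxcr4. The genes were named by symbol, though with earlier results of these data known, and all 10 were found among the 35584 genes of the deposited expression table. Chemokines are small secreted proteins that guide leukocytes along a gradient through receptors on the cell surface. Ccr2 is the receptor by which classical Ly6C-high monocytes leave the bone marrow and enter tissue, where they can become macrophages. In the heart, part of the resident macrophage pool is maintained locally with little input from the blood, and Ccr2 is commonly used to tell monocyte-derived from such long-lived macrophages.

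The hearts came from male mice of 8 to 12 weeks in 4 groups. Macrophage-depleted hearts (n = 3) were of genotype CD169-DTR, in which cells that express CD169 carry the receptor for diphtheria toxin. These mice were given toxin at 0.01 µg per g of body weight, 3 injections a week for 3 weeks, and their macrophages were depleted for 21 days. The toxin was also given to WT mice (n = 3), which carried no DTR allele, so allele and depletion cannot be told apart. Mertk-KO hearts (n = 2) lacked the phagocytic receptor Mertk, and LXR-DKO hearts (n = 3) lacked both liver X receptors. For these last groups the labels state no toxin. Their comparisons with WT and with depleted hearts may thus also differ in toxin, which cannot be told apart from genotype. Whether libraries came from different mice is not stated, and p-values measure only the spread between libraries, which may be technical. In RNA of whole hearts, fewer cells of a type and less RNA per cell cannot be told apart.

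Each of the 11 libraries held 10938600 to 20722295 estimated reads, and levels are given as normalised counts, which are reads scaled to the mean library size. A gene without a read in a library could still have a level of up to 2.12 to 4.22 normalised counts there, the worth of 3 reads, for counting error alone. Siglec1, which encodes CD169, stood at 33.8, 2.12 and 0.719 normalised counts in the depleted libraries against 53.4 to 64.3 in WT, so depleted library 1 kept more of it than the others (log2 fold change -3.36, SE 0.80, limma adjusted p = 0.178). Mertk fell in Mertk-KO hearts to 60.7% of its WT mean (limma adjusted p = 0.0408), and reads from outside a deleted part would still be counted. Mertk was also at 72.1% of WT in depleted and 72.8% in LXR-DKO hearts, with no call (limma adjusted p = 0.439 and 0.364). The Mertk-KO libraries (75.7 to 89.4 normalised counts) overlapped with the depleted libraries (75.4 to 125). The liver X receptor genes Nr1h3 and Nr1h2 were at 17.2% and 17.4% of their WT means in LXR-DKO hearts by normalised count. In the second deposited table, of length-corrected levels (TPM), they were at 68.4% and 59.0%, and for Nr1h3 the LXR-DKO libraries (6.04 to 7.39 TPM) overlapped with a Mertk-KO library at 6.77 TPM.

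Ccr2 was higher in depleted hearts than in any other group. Its levels were 179.7, 145 and 112 normalised counts in the depleted libraries and 54.9, 74.1 and 61.4 in WT. It stood at 23.3 and 72.0 in the Mertk-KO libraries and at 40.1, 29.5 and 28.4 in the LXR-DKO libraries. All 3 depleted libraries thus lay above all 8 others, and all 3 LXR-DKO libraries lay below all WT libraries, while the Mertk-KO libraries lay on either side of the LXR-DKO range. Ccr2 lies on chromosome 9 (chr9:124101950-124113557 of GRCm38, plus strand).

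The depleted mean was 229% of the WT mean (145 ± 34.1 against 63.5 ± 9.79 normalised counts, SD, n = 3 each). On the log2(normalised count + 1) scale the difference was 1.17 (SE 0.34, 95% interval 0.43 to 1.90), with a limma adjusted p of 0.302 over all genes tested and an unadjusted p of 0.00468. Over 19 other settings the limma adjusted p ran from 0.0239 to 0.832, and Ccr2 passed 0.05 in 3 of them. These were the fit with only the 2 groups compared (0.0387) and the fits without Mertk-KO library 1 (0.0239) or 2 (0.0272). For LXR-DKO hearts the difference from WT was -0.94 (SE 0.34, 95% interval -1.68 to -0.21, limma adjusted p = 0.343, range 0.0567 to 0.835 over the other settings). For Mertk-KO hearts it was -0.60 (SE 0.38, limma adjusted p = 0.318) and rested on which library was used, since it was -1.40 without library 2 (limma adjusted p = 0.00648) and 0.19 without library 1. Over all 19 settings that limma adjusted p ran from 0.00648 to 0.886.

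Compared directly, Ccr2 passed the test between the depleted group and each mutant group. It was 4.32-fold higher in depleted than in LXR-DKO hearts (log2 fold change 2.11, SE 0.34, limma adjusted p = 0.00670), and this call was made in all 19 other settings (limma adjusted p from 0.000137 to 0.0380). Against Mertk-KO hearts it was 3.41-fold higher (log2 fold change 1.77, SE 0.38, limma adjusted p = 0.0101, from 8.96e-05 to 0.0818 over the other settings). The difference rested on the Mertk-KO libraries, at 0.98 without library 1 and 2.56 without library 2, and the call was lost only where the 2 groups were fitted alone. Of the 31-base words in the longest Ccr2 transcript, 4.11% also occur in transcripts of other genes, and reads of these stretches could be divided between genes.

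**Figure D1:**
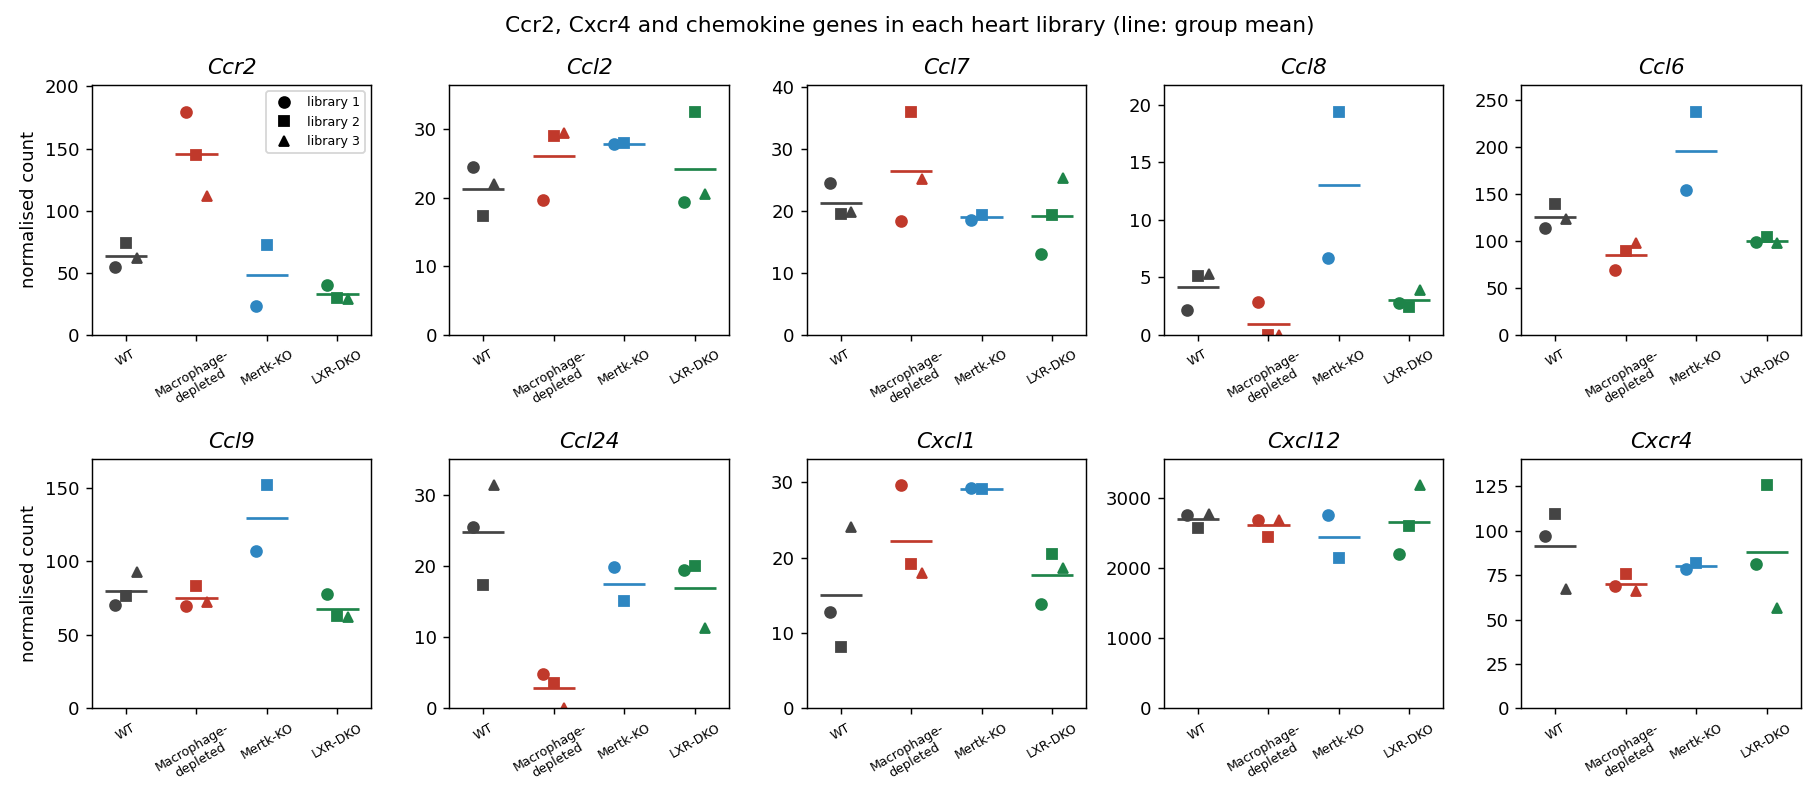
Normalised counts of the 10 genes in each of the 11 libraries, 1 panel per gene with its own linear axis from 0; points are libraries and bars are group means. All 3 depleted libraries of Ccr2 lie at or above 111.6 and all other libraries at or below 74.1, while all 3 depleted libraries of Ccl24 lie at or below 4.90.

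The ligands of Ccr2 showed no such separation between depleted and WT hearts. Ccl2 (monocyte chemoattractant protein-1, the main Ccr2 ligand) stood at 19.7, 29.0 and 29.5 normalised counts in depleted hearts and at 24.5, 17.4 and 22.0 in WT. In Mertk-KO hearts it was at 27.8 and 28.0 and in LXR-DKO hearts at 19.5, 32.6 and 20.5. Only the Mertk-KO libraries lay wholly above WT, and the other groups overlapped with it. The log2 differences from WT were 0.27 in depleted, 0.39 in Mertk-KO and 0.15 in LXR-DKO hearts, and none passed (limma adjusted p = 0.956, 0.433 and 0.868). The 95% interval of the depleted difference, from -0.33 to 0.87, still holds a change of up to 1.83-fold.

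Ccl7 (monocyte chemoattractant protein-3), a further Ccr2 ligand whose gene follows Ccl2 on chromosome 11 (Ccl2 at chr11:82035571-82037453 and Ccl7 at chr11:82045712-82047525, both on the plus strand), was at 18.3, 36.1 and 25.2 normalised counts in depleted hearts. The WT libraries stood at 24.5, 19.5 and 19.9, the Mertk-KO libraries at 18.6 and 19.4 and the LXR-DKO libraries at 12.97, 19.3 and 25.4. Depleted and LXR-DKO libraries spanned the WT range on both sides, and the Mertk-KO libraries lay just under it. The log2 differences from WT of 0.26, -0.15 and -0.18 did not pass (limma adjusted p = 0.963, 0.816 and 0.862). Ccl12, a Ccr2 ligand found in mouse, was too low for the test, at 2.2 to 7.1 normalised counts in depleted and 3.2 to 7.2 in WT hearts.

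Ccl6, Ccl9 and Ccl8 are chemokine genes of chromosome 11, and their upstream sequences are shown because all 3 genes were highest in the same library, Mertk-KO 2, by normalised count. In the second deposited table Ccl9 was highest in Mertk-KO 1. Each stretch holds the 250 bases before the gene's annotated start in RefSeq on GRCm38.p6, read 5′ to 3′ on the gene's own strand, and no annotated exon lies within it. Capitals mark matches to the NF-kB consensus, to the AP-1 motif TGANTCA or to the TATA box TATAAA, each searched on both strands.
Ccl6 (chr11:83593088-83593337, minus strand): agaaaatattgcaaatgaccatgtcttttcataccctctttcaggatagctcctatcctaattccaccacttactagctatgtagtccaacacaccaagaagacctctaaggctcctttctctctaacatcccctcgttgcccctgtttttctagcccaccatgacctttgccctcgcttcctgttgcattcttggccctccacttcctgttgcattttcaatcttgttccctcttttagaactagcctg
Ccl9 (chr11:83578637-83578886, minus strand): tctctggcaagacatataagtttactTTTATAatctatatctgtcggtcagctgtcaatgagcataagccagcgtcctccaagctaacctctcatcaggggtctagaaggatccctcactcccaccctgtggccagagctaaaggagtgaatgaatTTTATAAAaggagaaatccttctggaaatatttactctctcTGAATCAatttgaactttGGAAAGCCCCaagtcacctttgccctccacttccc
Ccl8 (chr11:82114935-82115184, plus strand): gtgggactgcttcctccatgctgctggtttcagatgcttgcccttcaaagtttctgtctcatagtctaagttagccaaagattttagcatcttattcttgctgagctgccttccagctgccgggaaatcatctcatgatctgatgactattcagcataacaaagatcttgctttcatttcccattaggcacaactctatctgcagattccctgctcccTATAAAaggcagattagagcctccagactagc
The stretch before Ccl9 held matches to all 3 motifs, that before Ccl8 a TATAAA 32 bases before the start, and that before Ccl6 no match. PU.1 (GAGGAAGT) and C/EBP (TTNNGCAA) motifs were searched as well and matched in none of these windows. Over 32851 windows of the same length before other genes, the share with a match was 3.90% for NF-kB, 2.44% for PU.1, 6.75% for AP-1, 9.56% for C/EBP and 12.4% for TATAAA. Matches of different motifs did not overlap in these windows. A match is a string of letters, and binding was not measured.

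Ccl6 (also called C10) and Ccl9 (also called MIP-1 gamma) are rodent chemokines made largely by myeloid cells, and both act through the receptor Ccr1. The genes are neighbours, with Ccl9 at chr11:83572919-83578636 and Ccl6 at chr11:83587882-83593087, both on the minus strand. Ccl6 was at 69.0, 88.4 and 97.1 normalised counts in depleted hearts, below all WT libraries at 114, 139 and 123. The LXR-DKO libraries, at 98.2, 104 and 97.6, also lay below all WT libraries. Both Mertk-KO libraries, at 154 and 237, lay above them. No difference from WT passed, with log2 values of -0.57 (SE 0.18, limma adjusted p = 0.369) in depleted, 0.61 (SE 0.20, limma adjusted p = 0.0685) in Mertk-KO and -0.32 (limma adjusted p = 0.510) in LXR-DKO hearts. Without Mertk-KO library 1 the Mertk-KO difference was 0.92 and passed (limma adjusted p = 0.0171, against up to 0.339 over the other settings).

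Set directly against each other, the groups differed in Ccl6 more clearly. Depleted hearts had less Ccl6 than Mertk-KO hearts (log2 fold change -1.18, SE 0.20, 2.26-fold lower, limma adjusted p = 0.00418), in the fit as run and in 18 of 19 other settings, the exception being the 2 groups fitted alone (0.0623). Mertk-KO hearts had 1.91-fold more Ccl6 than LXR-DKO hearts (log2 fold change 0.93, SE 0.20, limma adjusted p = 0.0367). That call was made in 9 of 19 other settings and lost when any WT or LXR-DKO library, depleted library 2 or Mertk-KO library 2 was left out (limma adjusted p from 0.0561 to 0.109), in the table of length-corrected levels (0.102) and with the 2 groups alone (0.225).

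Ccl9 differed from WT in Mertk-KO hearts by about as much as Ccl6 did. It stood at 107 and 151.5 normalised counts in Mertk-KO hearts, above all 3 WT libraries at 70.2, 76.1 and 92.4. The depleted libraries at 69.6, 83.3 and 72.1 and the LXR-DKO libraries at 77.5, 62.6 and 61.8 overlapped with WT. The Mertk-KO difference of 0.68 (SE 0.20, 95% interval 0.25 to 1.11) had a limma adjusted p of 0.0501, just over the threshold, and ran from 0.0229 (without Mertk-KO library 1) to 0.560 over the other settings, 4 of which passed. Ccl9 was lower in depleted than in Mertk-KO hearts (log2 fold change -0.76, SE 0.20, limma adjusted p = 0.0208, 14 of 19 other settings passed) and higher in Mertk-KO than in LXR-DKO hearts (0.92, SE 0.20, limma adjusted p = 0.0386, 6 of 19 passed). The range of the limma adjusted p was 0.00625 to 0.236 for the first of these and 0.00666 to 0.263 for the second. The first was lost without depleted library 1 (0.0502) or 3 (0.0569) or Mertk-KO library 2 (0.120), in the TPM table (0.236) and with the 2 groups alone (0.0946), and the second without any 1 library other than Mertk-KO library 1.

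In TPM the same gene gave another picture in both mutant groups. The Mertk-KO libraries were at 7.94 and 7.60 TPM, or 124% of the WT mean where normalised counts gave 162%, and overlapped with WT (log2 difference 0.33, limma adjusted p = 0.560). In LXR-DKO hearts Ccl9 was at 3.45, 1.81 and 1.75 TPM against 7.71, 6.26 and 4.80 TPM in WT, or 37.4% of the WT mean, where normalised counts gave 84.5%. The LXR-DKO difference on the log2(TPM + 0.1) scale was -1.43 and did not pass (limma adjusted p = 0.0949). Of the 31-base words in the longest Ccl9 transcript 4.03% occur in other genes, and no other gene shares more of them than Smarcb1. The tool behind each table is not stated in the sources used here. For Ccl6 both tables gave the same order of groups.

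Ccr1, the receptor shared by Ccl6 and Ccl9, was at 8.4, 15.6 and 10.1 normalised counts in depleted, 18.1 to 19.5 in WT, 6.6 and 31.2 in Mertk-KO and 10.7 to 22.2 in LXR-DKO hearts. The depleted libraries lay below WT, with a log2 difference of -0.72 that did not pass (limma adjusted p = 0.867).

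Ccl8 (monocyte chemoattractant protein-2), which in mouse acts through Ccr8, was the least abundant of the 10 genes and the only one under the minimum of 10 normalised counts set for testing. Its levels were 2.82, 0 and 0 in depleted, 2.13, 5.12 and 5.24 in WT, 2.78, 2.41 and 3.91 in LXR-DKO and 6.64 and 19.4 in Mertk-KO hearts. These rest on 2 estimated reads in all depleted libraries together, 12 in WT, 9 in LXR-DKO and 23 in Mertk-KO libraries, 18 of which were in library 2. As a ratio scaled for depth, depleted hearts had 0.136 times the WT level (exact 95% interval 0.0148 to 0.612) and Mertk-KO hearts 3.27 times (1.56 to 7.22). These intervals cover counting error only and not the spread between libraries. With no minimum on levels, the depleted and Mertk-KO groups differed by -3.00 on the log2 scale (limma adjusted p = 0.0183), while neither differed from WT (limma adjusted p = 0.627 and 0.318). Ccr8 itself gave 1.08 normalised counts in 1 Mertk-KO library and no read elsewhere.

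Ccl24 (eotaxin-2), which recruits eosinophils through Ccr3 and is made by alternatively activated macrophages, showed the largest log2 difference of the 9 genes tested in depleted hearts. It was at 4.90, 3.53 and 0 normalised counts in the depleted libraries and at 25.5, 17.4 and 31.4 in WT. The Mertk-KO libraries were at 19.9 and 15.1 and the LXR-DKO libraries at 19.5, 20.04 and 11.2. Every depleted library lay below every other library, and the other 3 groups overlapped. The depleted values came from 8 estimated reads against 71 in WT, a depth-scaled ratio of 0.0921 (exact 95% interval 0.0383 to 0.191, counting error only). The library with 0 reads in this table was listed at 0.198 TPM in the other. Ccl24 lies at chr5:135569937-135573049 on the minus strand.

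The log2 difference of Ccl24 between depleted and WT hearts was -3.07 (SE 0.59, 95% interval -4.35 to -1.79), with a limma adjusted p of 0.0748 that missed the threshold. Without depleted library 3, the library with no read, the difference was -2.28, and without depleted library 1 it was -3.56. The adjusted p by limma ran from 0.0130 to 0.323 over 19 other settings, of which 5 passed: a pseudocount of 4 (0.0330), the TPM table (0.0130) and the fits without depleted library 1 (0.0391), Mertk-KO library 1 (0.0428) or Mertk-KO library 2 (0.0402). Ccl24 was lower in depleted than in Mertk-KO hearts (log2 fold change -2.62, SE 0.66, limma adjusted p = 0.0190, from 0.00629 to 0.121 over the other settings, 17 of 19 passed). Without Mertk-KO library 1 that value was 0.0615. It was also lower than in LXR-DKO hearts (log2 fold change -2.54, SE 0.59, limma adjusted p = 0.0412, from 0.00424 to 0.160, 10 of 19 passed). The second call was lost without any 1 of the WT libraries (0.0627 to 0.0660), depleted library 2 (0.0699) or 3 (0.0662), or LXR-DKO library 1 (0.141) or 2 (0.160), with no minimum on levels (0.0543) and with the 2 groups alone (0.0704). Without depleted library 3 the differences from Mertk-KO and LXR-DKO hearts were -1.83 and -1.75. In Mertk-KO and LXR-DKO hearts the differences from WT were -0.45 and -0.53 and did not pass (limma adjusted p = 0.690 and 0.759). Ccr3, the receptor of Ccl24, had no read in any library.

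Cxcl1, a neutrophil attractant that acts through Cxcr2, was at 29.6, 19.1 and 18.0 normalised counts in depleted, 12.8, 8.19 and 24.1 in WT, 29.2 and 29.1 in Mertk-KO and 13.9, 20.5 and 18.6 in LXR-DKO hearts. Only the Mertk-KO libraries lay wholly above WT, which itself spread widely. The log2 difference of 1.04 (SE 0.41, 95% interval 0.14 to 1.93) had an unadjusted p of 0.0266 and did not pass after adjustment (limma adjusted p = 0.121, from 0.0793 to 0.314 over the other settings). In depleted and LXR-DKO hearts it was 0.63 and 0.33 (limma adjusted p = 0.821 and 0.761). Cxcr2 ranged from 8.07 to 31.03 over all libraries and overlapped between all groups.

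Cxcl12 (stromal cell-derived factor 1), which retains leukocytes and progenitors in tissue through Cxcr4, was by far the most abundant of the 10 genes. Its levels were 2696, 2449.97 and 2692 normalised counts in depleted and 2768, 2575 and 2772 in WT hearts. They were 2768 and 2141 in Mertk-KO and 2200.3, 2612 and 3184 in LXR-DKO hearts. The groups overlapped throughout. The log2 difference between depleted and WT hearts was -0.05 with a 95% interval of -0.33 to 0.23 (limma adjusted p = 0.993), which leaves room for a level between 0.797 and 1.17 times that of WT. The Mertk-KO and LXR-DKO differences were -0.15 and -0.04 (limma adjusted p = 0.519 and 0.940). The sign of such small differences is not fixed, since the TPM table gave 0.01 for depleted hearts.

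Cxcr4, its receptor, was at 69.0, 75.7 and 66.2 normalised counts in depleted, 96.8, 109.5 and 67.1 in WT, 78.3 and 81.9 in Mertk-KO and 81.5, 125.5 and 56.6 in LXR-DKO hearts. The depleted libraries lay close together at the lower end of the WT range. The log2 differences from WT of -0.34, -0.15 and -0.10 did not pass (limma adjusted p = 0.901, 0.760 and 0.917), and the 95% interval of the depleted value ran from -0.90 to 0.21. Ackr3, the scavenging receptor of Cxcl12, was at 702 to 782 normalised counts in LXR-DKO hearts, below all WT libraries at 926 to 955, with a log2 difference of -0.34 (SE 0.11, limma adjusted p = 0.306).

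**Figure D2:**
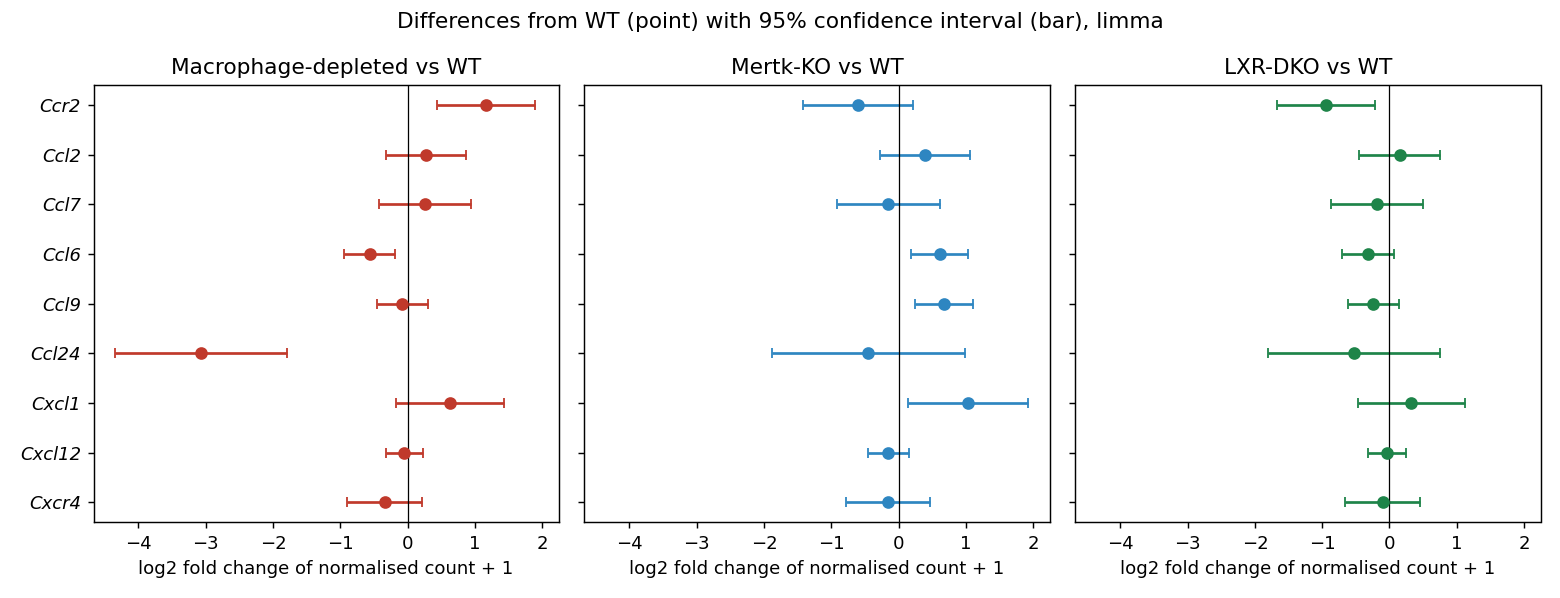
Log2 differences from WT of the 9 tested genes in depleted, Mertk-KO and LXR-DKO hearts, with bars for the 95% interval of each estimate on the log2(normalised count + 1) scale. The widest departure is that of Ccl24 in depleted hearts at -3.07, and the intervals of Ccl2, Ccl7, Cxcl12 and Cxcr4 include 0 in all 3 comparisons.

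Of the 9 genes tested, limma called 0 in depleted hearts against WT, where 0.238% of all genes tested were called, 0 in Mertk-KO hearts, where 9.27% were called, and 0 in LXR-DKO hearts, where 0.418% were called. At an unadjusted p under 0.05 the counts were 3, 3 and 1: Ccr2, Ccl6 and Ccl24 in depleted hearts, Ccl6, Ccl9 and Cxcl1 in Mertk-KO hearts, and Ccr2 in LXR-DKO hearts. Voom, which weights genes by their reads, called 0, 1 (Ccl9) and 0, and the TPM table called 1 (Ccl24), 0 and 0 of the 10 genes. Libraries did not overlap with WT for 1 gene higher (Ccr2) and 2 lower (Ccl6 and Ccl24) in depleted hearts, beside 8.51% and 8.15% of all genes tested. In Mertk-KO hearts they did not for 4 genes higher (Ccl2, Ccl6, Ccl9 and Cxcl1) and 1 lower (Ccl7), beside 21.4% and 21.1%, and in LXR-DKO hearts for 2 lower (Ccr2 and Ccl6) and 0 higher, beside 10.7% and 12.0%. The 3 comparisons share the WT libraries.

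Without WT in the contrast, 4 of the 9 genes tested differed between depleted and Mertk-KO hearts, 1 higher (Ccr2) and 3 lower (Ccl6, Ccl9 and Ccl24), where 21.0% of all genes tested were called, 11.6% higher and 9.39% lower. Between depleted and LXR-DKO hearts 2 differed (Ccr2 higher and Ccl24 lower), where 3.24% were called, 1.35% higher and 1.89% lower. Between Mertk-KO and LXR-DKO hearts 2 differed (Ccl6 and Ccl9, both higher in Mertk-KO), where 2.46% were called, 0.684% higher. Voom called the same number in each, and the TPM table called 4, 2 and 1. The median log2 difference of the 9 genes was -0.05 in depleted, -0.15 in Mertk-KO and -0.18 in LXR-DKO hearts against WT, beside 0.00, -0.01 and 0.00 over all genes tested. Against WT, 4 genes lay higher and 5 lower in depleted, 4 and 5 in Mertk-KO, and 2 and 7 in LXR-DKO hearts, whether or not they passed.

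On the TPM scale, which corrects for transcript length, the WT means ordered the genes as Cxcl12 (49.96 TPM), Ccl6 (11.2), Ccl9 (6.25), Cxcr4 (4.56), Ccl24 (3.14), Ccl2 (2.48), Ccl7 (2.37), Ccr2 (1.57), Cxcl1 (1.30) and Ccl8 (1.097). The WT libraries of Ccl9 and Cxcr4 overlapped, as did those of Cxcr4 and Ccl24, of Ccl2 and Ccl7, of Ccr2 and Cxcl1, and of Cxcl1 and Ccl8. Cxcl12, Ccl6, Ccl24 and Ccl7 were separated from the next gene below them. In depleted hearts Ccr2 was at 3.42 ± 0.717 TPM, beside 3.14 ± 0.297 for Ccl2 and 3.23 ± 1.19 for Ccl7, so receptor and ligands stood at like levels there, with overlapping libraries. Ccl24 was at 0.314 ± 0.126 TPM in those hearts.

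**Figure D3:**
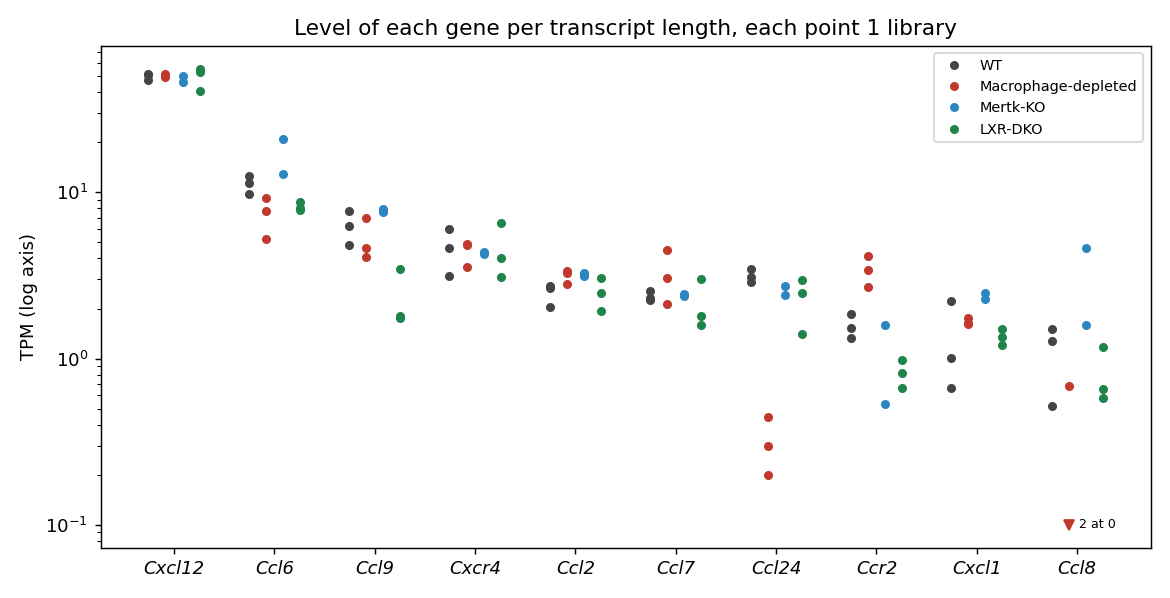
Levels of the 10 genes in TPM on a logarithmic axis, by group, with 1 point per library. Cxcl12 lies between 40.9 and 55.4 TPM in all libraries, and Ccl24 in depleted hearts lies at or below 0.448 TPM.

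Set against a general macrophage gene, Ccr2 separated the groups further. Csf1r, the receptor of the macrophage growth factor, was at 307 ± 111 normalised counts in depleted and 616 ± 37.0 in WT hearts (log2 difference -1.07, limma adjusted p = 0.0748). As a share of the Csf1r level in the same library, both in TPM, Ccr2 was at 49.5%, 58.8% and 73.0% in depleted hearts and at 11.2%, 13.99% and 12.3% in WT. It was at 4.13% and 10.4% in Mertk-KO and at 8.23%, 6.86% and 8.44% in LXR-DKO hearts, so that all mutant libraries lay below WT and all depleted libraries above it. The share moved through both of its parts in depleted hearts, since Ccr2 was higher and Csf1r lower, and it is given with no test because it was chosen after the values were seen.

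The other chemokines did not all behave alike against the same gene. Ccl24 was at 24.4%, 25.8% and 24.6% of Csf1r in WT and at 3.55%, 7.70% and 5.37% in depleted hearts, so it was lower than Csf1r was. Ccl6 was at 82.5% to 94.2% in WT and at 62.4%, 132% and 250.05% in depleted hearts, with no common side. Ccl9 was at 84.0%, 79.4% and 111% of Csf1r in depleted hearts, above the WT range of 38.4% to 64.9%, as Ccr2 was. It was at 61.7% and 49.5% in Mertk-KO and at 29.1%, 18.7% and 18.0% in LXR-DKO hearts. All LXR-DKO libraries thus lay below WT for Ccl9 as well.

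**Figure D4:**
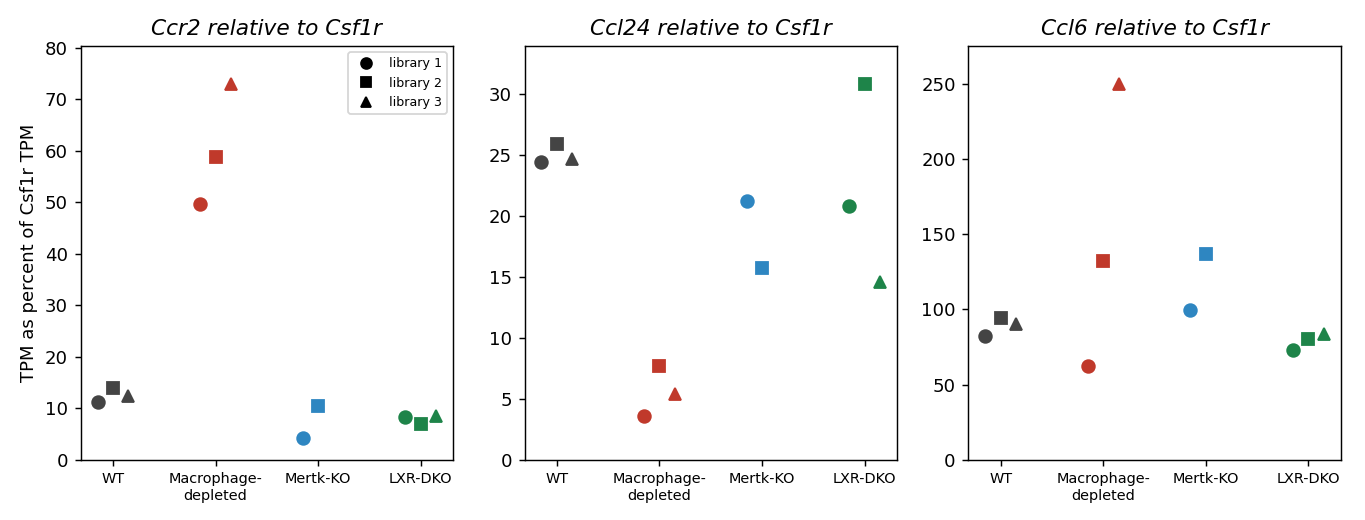
TPM of Ccr2, Ccl24 and Ccl6 as a percentage of the TPM of Csf1r in the same library, 1 point per library, by group. Ccr2 lies at 49.5% to 73.0% in depleted hearts and at 4.13% to 13.99% elsewhere, and Ccl24 lies at 3.55% to 7.70% in depleted hearts and at 14.5% to 30.8% elsewhere.

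Marker genes of cell types are given beside these values, and their part in the results was not tested. Of 7 monocyte markers tested in depleted hearts against WT, 0 were called by limma (2 at an unadjusted p under 0.05), with a median log2 difference of 0.17 and a summed level of 2004 to 2569 normalised counts against 1931 to 2258. Ly6c2, which marks the classical monocytes that carry Ccr2, was at 88.6, 63.6 and 77.7 in depleted and 46.7, 65.5 and 35.2 in WT hearts (log2 difference 0.66, limma adjusted p = 0.554). Ms4a6b went the other way (-1.06, limma adjusted p = 0.490). Of 6 dendritic cell markers 0 were called (2 at an unadjusted p under 0.05), 2 lay higher and 4 lower, the median was -0.29, and the sum was 399.9 to 443 against 472 to 489. The smallest p was that of Clec10a, which lay lower (log2 difference -1.41, limma adjusted p = 0.547). The next was that of Itgax, which encodes CD11c and was at 27.9, 26.1 and 54.7 in depleted and 10.6, 9.2 and 13.6 in WT hearts (log2 difference 1.55, limma adjusted p = 0.636).

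Of 12 resident cardiac macrophage markers, 2 fell in depleted hearts, Timd4 (log2 fold change -3.61, limma adjusted p = 0.00343) and the scavenger receptor Cd163 (-3.42, limma adjusted p = 0.00749). The median of this list was -1.31, and its sum ran from 2471 to 4221 normalised counts against 4854 to 5054 in WT. Of 18 general macrophage genes 0 were called, 13 had an unadjusted p under 0.05, and the median was -0.83. In Mertk-KO hearts the same 18 genes had a median of 0.55 and a sum of 5641 to 8559 against 4368 to 5278 in WT, and Mertk alone was called. Ccl6, Ccl9 and Ccl8 lay above WT there by normalised count, with no call. Between depleted and Mertk-KO hearts, where Ccl6, Ccl9 and Ccl24 were lower, 16 of the 18 general macrophage genes and 6 of the 12 resident macrophage genes were called lower as well, with medians of -1.34 and -1.17. Of the monocyte genes 1 of 7 was called lower there (Ms4a6b), beside the higher Ccr2. Between depleted and LXR-DKO hearts 2 of 18 and 2 of 12 were called lower, and between Mertk-KO and LXR-DKO hearts, where Ccl6 and Ccl9 were higher, 1 of 18 was called higher (Laptm5), with a median of 0.77. In LXR-DKO hearts Ccr2 lay below WT and was not called. The monocyte list there had a median of -0.34 and a sum of 1561 to 1871, under the WT range. Of its genes 0 of 7 were called by limma, and 1 had an unadjusted p under 0.05.

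Eosinophil markers, the cells that Ccl24 attracts, were all too low for testing and summed to 1.19 to 12.1 normalised counts over all libraries. Of 5 neutrophil markers 0 were called against WT in any group, and the list summed to 69.1 to 179 in depleted and 90.7 to 98.8 in WT hearts. B cell, mast cell, T and NK cell, fibroblast, endothelial, pericyte, mesothelial, red cell and atrial markers also had 0 calls by limma against WT in each group. Mesothelial genes had a median of 1.79 in depleted hearts and atrial genes one of -4.10 in Mertk-KO hearts, and their part in the results was not tested. Of 8 ventricular muscle genes only Myl3 was called, in Mertk-KO hearts.

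Among the other chemokines and chemokine receptors tested, limma made 2 calls against WT, both in Mertk-KO hearts, where 9.27% of all genes tested were called. Of 5 other CXC and CX3C chemokines, the 2 that rose there were Cxcl16, a membrane-bound chemokine and scavenger receptor (190 ± 51.5 against 110 ± 11.6 normalised counts, log2 fold change 0.76, SE 0.17, limma adjusted p = 0.0255), and Cx3cl1, the ligand of Cx3cr1 (256 ± 30.4 against 173 ± 11.9, 0.56, SE 0.16, limma adjusted p = 0.0498). In depleted and LXR-DKO hearts 0 of the 5 were called, with 1 and 2 at an unadjusted p under 0.05. In depleted hearts Pf4 was at 13.7 to 60.5 against 86.1 to 103 (-1.38, limma adjusted p = 0.324), and in LXR-DKO hearts Cxcl14 was at 246 to 273 against 133 to 228 (0.57, limma adjusted p = 0.360). Of 5 other CC chemokines 0 were called in any group. Ccl21a, a lymphatic chemokine, was at 293 ± 85.3 in depleted against 201 ± 40.5 in WT hearts (0.53, limma adjusted p = 0.480).

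Of 5 other chemokine receptors tested in depleted hearts, 4 lay below WT, on the opposite side from Ccr2. Of the 5, 0 were called by limma and 2 had an unadjusted p under 0.05. Cx3cr1, the fractalkine receptor of patrolling monocytes and macrophages, was at 25.3 to 45.3 normalised counts against 80.8 to 134 in WT (log2 difference -1.67, SE 0.33, limma adjusted p = 0.0757). Mertk-KO and LXR-DKO hearts also had 0 of 5 receptors called, with 0 and 1 at an unadjusted p under 0.05.

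Genes that act before and after chemokines in recruitment gave few calls. Of 16 adhesion and rolling genes 0 were called against WT in any group, with 3, 6 and 3 at an unadjusted p under 0.05 in depleted, Mertk-KO and LXR-DKO hearts. Vcam1, the endothelial ligand of monocyte integrins, was at 385 ± 122 in depleted and 253 ± 48.7 in WT hearts (log2 difference 0.57, limma adjusted p = 0.528). Of 5 cytokine inducers 0 were called in any group. In depleted hearts 1 of the 5 lay higher than WT and 4 lower, with a median of -0.13. The higher was Il33, an alarmin of stromal cells, at 73.2, 148 and 109 in depleted and 45.7, 63.5 and 52.4 in WT hearts (0.98, SE 0.31, limma adjusted p = 0.380). Its libraries did not overlap, beside 8.51% of all genes tested that were higher without overlap. Il1b was at 22.6 and 37.7 in Mertk-KO and 7.4, 7.2 and 14.7 in WT hearts (1.56, limma adjusted p = 0.0968). In depleted hearts Il1b was at 2.8 to 4.3 (-1.12, limma adjusted p = 0.659). Of 10 NF-kB feedback genes 0 were called in any group, and Nfkbia was highest in depleted hearts (0.61 over WT, limma adjusted p = 0.348).

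Immediate early genes are induced within minutes by stress and signalling. Of the lists compared with WT this was the longest, with 20 tested, and had the most calls. The share called in Mertk-KO hearts, 5 of 20, was below the 2 of 5 of the other CXC and CX3C chemokines. Over all genes tested 9.27% were called there. Of 20 tested, 5 rose in Mertk-KO hearts, where Atf3 was at 255 ± 58.5 against 46.7 ± 29.4 normalised counts (log2 fold change 2.57, limma adjusted p = 0.00973) and Nr4a1 at 1367 and 1398 against 85.0 to 809 (2.53, limma adjusted p = 0.0447). Klf2 (1.13, limma adjusted p = 0.0316), Klf4 (0.73, limma adjusted p = 0.0498) and Jun (0.93, limma adjusted p = 0.049999) were the others. In depleted hearts 1 rose, Ier3 (398 ± 37.6 against 239 ± 10.3, log2 fold change 0.73, limma adjusted p = 0.0480), and in LXR-DKO hearts 0 did, with 1 at an unadjusted p under 0.05. Their part in the Mertk-KO levels of Cxcl1, Ccl6 and Ccl9, none of which was called against WT, was not tested.

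Genes whose levels ran most alike with 6 of the genes were ranked by Pearson's r of log2 values over the 11 libraries, among 12457 other protein-coding genes (12458 for Ccl8), as a description with no p. Libraries of a group share their condition, and with 11 libraries high values arise easily over so many genes. Ccl24 ran most alike with Plxnd1 (r = 0.993), Cd163 (0.974), Stab1 (0.959), Mlxipl (0.931) and Csf1r (0.926), of which Cd163, Stab1 and Csf1r are macrophage genes. For Ccl8 these were Fcgr3 (0.9497), Lyz2 (0.929), Tnfaip8l2, Abhd11 and Phyh (0.907), the first pair being myeloid genes. Ccr2 ran most alike with Nampt (0.939), an enzyme of NAD synthesis, followed by Rttn, Zfp934, Trim56 and Inpp5f (0.901).

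For the less variable genes the highest r was lower. Ccl2 had Alg8 (0.864), Ankrd54, Ube2e3, Pafah2 and Pkmyt1 (0.831). Cxcl12 had Gstm1 (0.870), Kcng2, Lamb2, Palm2 and Corin (0.824), and Cxcr4 had Sprn (0.864), Plrg1, Lrrc75a, Rab13 and Vamp3 (0.848). No gene was on more than 1 of these 6 lists of 5.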

How the data were processed

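RNA sequencing of polyA RNA from whole mouse hearts, in 11 libraries, was analysed from 2 tables that the authors deposited, each with all libraries. Both hold a signal per gene: the deposited signal of the first is reads plus 0.5 per gene on a per-million scale, as read from the values, and the deposited signal of the second is TPM rescaled between libraries by the authors. Trizol extraction and amplification with an Ovation kit are given per the labels' protocols. Per the submitters' processing notes, CASAVA 1.8.2, cutadapt, RSEM 1.2.20, kallisto 0.43.1 and GRCm38 were used, with no role stated; strand use and annotation release are not stated in the sources used here.

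Estimated reads were recovered by removing the added part. Only 56.4% to 61.4% of low values were whole within 0.01 read, so no model of whole counts was used. Normalised counts are estimated reads scaled to the mean library size. Log2(normalised count + 1) of the 13884 genes whose mean normalised count was 10 or more (0.650 on the deposited scale) was tested with limma 3.58.1 in R 4.3.3, all 4 groups in 1 model, with Benjamini-Hochberg adjustment over all genes tested and a threshold of 0.05; 9 of the 10 genes were tested. TPM were tested as log2(TPM + 0.1) for 13523 genes with a mean of at least 0.5. Fold changes on these scales understate the change of low genes. The procedure was tested on simulated data. Intervals and floors cover counting error only: reads were amplified and carry no molecular identifiers, so they need not be independent.

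Alternatives were another pseudocount, no minimum, the TPM table, voom, TMM scaling, a length and GC correction, only the 2 groups compared, a replicate block and leaving out each library. All genes of the set, the targeted genes, of each other list the calls against WT (up to 4, or up to 2 by smallest p where none passed), and the 5 genes most alike to 6 of the genes were eligible to be named; Ccl12, Ccr1, Ccr3, Ccr8, Cxcr2, Il1b, Vcam1 and genes under other observations were also named, some after their values were seen. Results for some genes of these lists are not reported here. Genes and lists were chosen with earlier results of these data known. Upstream sequences of 7 of the 10 genes were matched in RefSeq on GRCm38.p6.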

Additional observations from a re-analysis of the deposited data

How the results depend on the processing

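Genes called by limma numbered 33 in depleted, 1287 in Mertk-KO and 58 in LXR-DKO hearts against WT, and 2911 for depleted against Mertk-KO, 450.0 for depleted against LXR-DKO and 341 for Mertk-KO against LXR-DKO hearts. With no minimum, Mertk-KO against WT gave 825. The TPM table gave 7 for depleted and 363 for Mertk-KO hearts against WT, then 1556, 219 and 88 in the order above. Voom gave 162 for Mertk-KO against LXR-DKO. With the length and GC trend removed, Mertk-KO against WT gave 278 (178 of them higher, against 469 higher and 818 lower before) and depleted against Mertk-KO 1268 (502 and 766, against 1607 and 1304). Fitting only the 2 groups gave 66, 1 and 124 against WT, 146 for depleted against Mertk-KO and 20 for Mertk-KO against LXR-DKO. Leaving out 1 library gave 3 to 84, 70.0 to 2399 and 31 to 118 against WT, then 1378 to 3237, 135 to 1229 and 72 to 2168. Same-numbered libraries were not paired (15 pairs, correlation of deviations -0.09 to 0.11, 2 over 0.1). With a replicate block the Mertk-KO count against WT was 391 and that against LXR-DKO 119, and of the calls among the 10 genes only that of Ccl9 between Mertk-KO and LXR-DKO was lost (limma adjusted p = 0.0779, range 0.00666 to 0.263).

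The direction of some differences from WT turned. The TPM table gave -0.0065 for Ccl2 in LXR-DKO, 0.029 for Ccl7 in Mertk-KO and 0.014 for Cxcl12 in depleted hearts, and the length and GC correction 0.025 for Cxcl12 in LXR-DKO hearts. Leaving out 1 library, LXR-DKO differences ran from -0.075 to 0.28 for Ccl2, -0.40 to 0.063 for Ccl7, -0.012 to 0.71 for Cxcl1, -0.17 to 0.093 for Cxcl12 and -0.39 to 0.18 for Cxcr4. Mertk-KO differences ran from -1.40 to 0.19 for Ccr2 and -0.34 to 0.034 for Cxcl12, and that of Ccl9 in depleted hearts from -0.16 to 0.032. The cause was not tested. Of 665 values of single genes under the alternatives, 597 kept direction and side of the threshold. Depth limits Ccl8, with 2 to 23 reads a group, and Ccl24 in depleted hearts, with 8.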

Other observations

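Cxcl9, Cxcl10, Ccl5 and Ccl12, 4 chemokine genes named after their values were seen, were highest in Mertk-KO 2. By normalised count that library was also the highest for Ccl6, Ccl9 and Ccl8, though for Ccl9 not in TPM. Cxcl9, a ligand of Cxcr3, was at 443 normalised counts there, against 121 in Mertk-KO 1 and 62.5 to 117 in the other groups. Cxcl10, another Cxcr3 ligand, was at 39.9 against 2.7 in Mertk-KO 1 and 0.93 to 12.95 elsewhere. Ccl5, a T cell attractant, was at 33.4 against 4.0 and 3.7 to 8.5, and Ccl12 at 23.7 against 6.6 and 2.2 to 12.97. Of these only Cxcl9 reached the minimum for testing, with a log2 difference between Mertk-KO and WT of 1.35 (SE 0.41, limma adjusted p = 0.0560). As n is 2 in this group, the values of 1 library carry its mean.

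Ccr2 was also higher in Mertk-KO 2 than in Mertk-KO 1, at 72.0 against 23.3 normalised counts. Unlike those genes, it lay within the WT range in Mertk-KO 2. In Mertk-KO 1 it lay below that range. Of the markers, Itgax had 42.0 in library 2 and 3.98 in library 1 of that group. The highest level of Ccr2 was in depleted library 1, which kept the most Siglec1, and the lowest depleted level was in library 3. In depleted libraries 2 and 3 Siglec1 was at no more than about the worth of 3 reads. Counting error alone could thus set which of them had less. The order was seen after the values were known, and a link to Siglec1 was not tested.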
